A study of Mus musculus with 6 samples.

Results

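The TRIM genes are described here in mouse prostate cancer cells that carried either PIM1 or an empty vector. Members were all genes whose symbol is Trim followed by a number and which had a probe set annotated to them alone. This rule gave 64 of the 22180 genes on the array, with 69 probe sets, and the brightest probe set stood for each gene. All 6 samples were prostate epithelial cancer cells from Rb1F/F:Trp53F/F:PB-Cre4 mice, in which the floxed alleles of Rb1 and Trp53 are removed by a Cre recombinase driven by the prostate-restricted probasin promoter. Both groups therefore share the loss of these 2 genes, and they differ in the lentivirus they received. The EV group (3 arrays) received a lentivirus with an empty vector and the PIM1 group (3 arrays) a lentivirus for the kinase PIM1. The labels give no species for the insert and no separate cultures or clones within a group. What the p-values measure is then the spread among these arrays alone, which may be technical.

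TRIM proteins share an amino-terminal RING finger, 1 or more B-boxes and a coiled coil, and they differ in what follows, most often a PRY-SPRY domain that binds the target. The RING finger recruits a ubiquitin-loaded E2 enzyme and passes ubiquitin to substrates, or to the ligase itself. Many members are induced by interferon and act as sensors, restriction factors or regulators of innate immune signalling, whereas others repress transcription, bind microtubules or serve muscle. Not every member is a ligase of this kind. Trim14, Trim16, Trim29, Trim44 and Trim66 lack the RING finger, and Trim30e-ps1 is annotated as a transcribed pseudogene. Of the listed family members, Trim4, Trim5, Trim34b, Trim60, Trim61 and Trim65 had no probe set of their own and were not analysed here.

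Values are deposited log2 signals, and differences are PIM1 minus EV on that scale. A gene was called when the limma test over all 22180 genes gave an adjusted p under 0.05. Pim1 itself read 5.26, 6.25 and 5.23 in EV and 7.11, 6.89 and 6.97 in PIM1, which is 1.41 higher (adjusted p = 0.00455). The Pim1 probe set may not measure the introduced sequence. Among markers of the labelled cell type, Epcam read between 2.28 and 2.51 and Trp63 between 2.67 and 3.17, below the median signal of all genes (4.01). Other epithelial markers lay on both sides of that median. Itga6 averaged 8.92 in EV and 6.82 in PIM1, Cdh3 6.25 and 4.96, and Foxa1 6.29 and 6.08. Krt14 averaged 2.98 and 2.55, and Tmprss2 3.31 and 3.03. Of 10 luminal prostate markers, 2 rose and 2 fell. Krt18 averaged 9.14 in EV and 4.90 in PIM1 and Krt19 4.28 and 3.56, whereas Cd24a averaged 7.55 and 9.21 and Hoxb13 4.99 and 5.57, and Krt8 (4.73 and 4.65) was not called. The summed luminal log2 signal was 46.6 to 47.9 in EV and 43.0 to 43.4 in PIM1. Krt18 alone differed by -4.24, so this sum largely follows that gene and does not show a general luminal fall. Fibroblast markers moved with the groups. Of 12 measured, 10 rose and 1 fell, and their summed log2 signal was 75.5 to 75.9 on the EV arrays and 97.5 to 98.3 on the PIM1 arrays. Macrophage and leukocyte markers (11 measured) showed 1 rise and 1 fall, their summed signal was 35.6 to 36.7 in EV and 33.1 to 35.0 in PIM1, and the pan-leukocyte gene Ptprc lay between 1.73 and 2.24. None of 8 endothelial markers was called by limma, 1 had an unadjusted p under 0.05, and their summed signal was 22.0 to 23.1 against 21.3 to 22.4. The part of other cell types in the results below was not tested, and in such bulk samples fewer cells of a type and less RNA per cell cannot be told apart.

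Of the 13 measured interferon-inducible TRIM genes, 7 were higher in PIM1 cells, with Trim30d and Trim21 ahead, and 6 were not called. Several bright nuclear and cytoplasmic members, with Trim16, Trim33 and Trim37 ahead, were lower. Of 64 Trim genes, 20 were called, 13 higher and 7 lower. Over all genes tested 27.0% were called, 16.1% higher and 10.9% lower, so the Trim share was near the background. A called change of at least 2-fold was found for 4 Trim genes, all of them higher, where the background was 6.26%. EV and PIM1 arrays were fully apart for 32 Trim genes, 17 of them higher in PIM1, against a background of 43.2%. The median difference was -0.03 over the Trim genes and -0.05 over all genes. When the arrays were quantile normalized, centred or fitted by cyclic loess, both signs turned, to 0.07 for the Trim genes in each case and to 0.0052, 0.045 and 0.012 for all genes. Without PIM1 replicate 1 the calls numbered 12, 8 higher and 4 lower, and without PIM1 replicate 3 they also numbered 12, 7 higher and 5 lower.

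**Figure D1:**
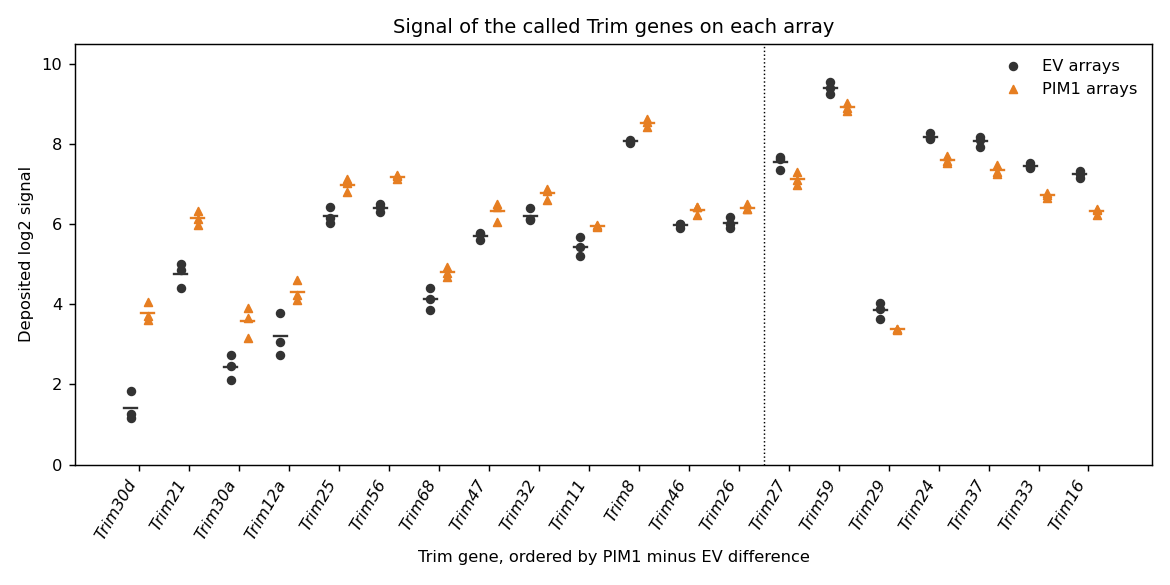
Deposited log2 signal (vertical axis) of the 20 called Trim genes on each of 3 EV arrays (circles) and 3 PIM1 arrays (triangles), with group means as bars. The genes are ordered by difference, and the dotted line parts 13 higher from 7 lower. The groups do not overlap for any of the 20, and they do not for 43.2% of all genes tested. Call and lack of overlap come from the same values, so neither supports the other.

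Calls were more frequent among the brighter members, as they were over all genes. Of the 28 Trim genes in the brighter part of the array, at or above a mean signal of 4.01, 10 rose and 6 fell, where 44.0% of all genes at that brightness were called. Of the 36 dimmer Trim genes, 3 rose and 1 fell, where the background was 10.0%. The 3 dim genes that rose were Trim30d, Trim30a and Trim12a, and the dim gene that fell was Trim29.

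**Figure D2:**
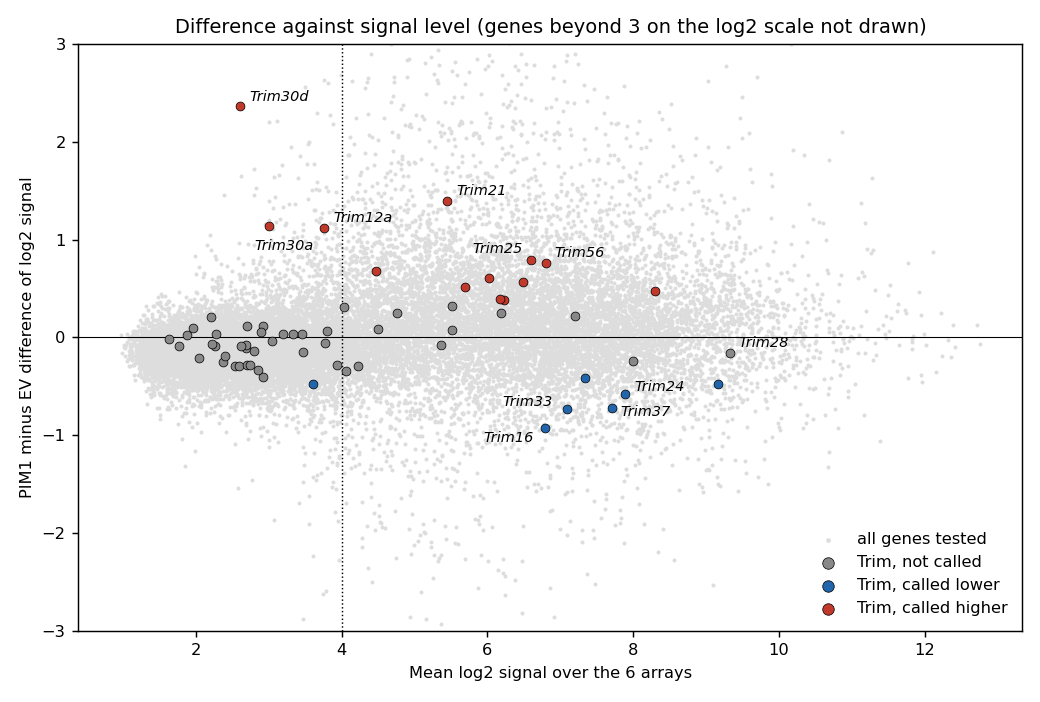
PIM1 minus EV difference of log2 signal (vertical axis) against the mean log2 signal of the 6 arrays (horizontal axis) for all genes tested (light points) and the 64 Trim genes (outlined points). The dotted line is the median signal of all genes, 4.01. Trim30d, Trim30a and Trim12a are the called higher genes left of it, and 6 of the 7 called lower genes lie right of it.

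Among members known to respond to interferon, 7 of the 13 measured rose and 0 fell, where 16.1% of all genes rose and 10.9% fell. This list, like the others here, was chosen with earlier results of these data known, so the contrast is a description and not a test. Their median difference was 0.39 (-0.05 over all genes). Trim30d, a mouse paralog of Trim30a, had the largest difference of the family. It read 1.83, 1.17 and 1.26 in EV cells against 3.60, 3.70 and 4.06 in PIM1 cells. Each PIM1 array lay above each EV array, and the EV values were among the dimmest of the family. The Trim30d difference was 2.36 (standard error 0.196, adjusted p = 7.26e-05), a 5.14-fold change that rests on an EV signal of 1.42 ± 0.36 (SD, n = 3) and so in unknown part on background. Trim30a, a ligase that restrains NF-kappaB signalling by removing the adaptors TAB2 and TAB3, read 2.74, 2.47 and 2.11 in EV and 3.66, 3.16 and 3.90 in PIM1. The groups were apart, with PIM1 replicate 2 nearest to EV, and the difference was 1.14 (standard error 0.219, adjusted p = 0.00612).

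Trim21, a cytosolic receptor for antibody on incoming virus and a ubiquitin ligase, read 4.85, 5.00 and 4.41 in EV cells against 6.12, 5.98 and 6.34 in PIM1 cells. All PIM1 arrays were above all EV arrays, at a signal above the median of all genes. Trim21 rose by 1.40 (standard error 0.169, adjusted p = 0.000569), or 2.63-fold. Trim12a, a mouse relative of the primate retroviral restriction factor TRIM5, read 2.74, 3.79 and 3.06 in EV and 4.12, 4.23 and 4.60 in PIM1. EV replicate 2 was the highest EV array and lay below the lowest PIM1 array. The Trim12a difference was 1.12 (standard error 0.256, adjusted p = 0.0136), and without PIM1 replicate 3 it was 0.98 and did not pass (adjusted p = 0.0609).

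Trim25, the ligase that helps activate the RNA sensor RIG-I, read 6.03, 6.42 and 6.14 in EV and 6.80, 7.03 and 7.12 in PIM1, a rise of 0.79 (adjusted p = 0.00393). Trim56, which promotes signalling from cytosolic DNA and RNA, read 6.31, 6.51 and 6.42 in EV and 7.13, 7.20 and 7.22 in PIM1, a rise of 0.76 (adjusted p = 0.000816). For both genes the groups were apart, and both calls held under all 14 alternatives. Trim26, whose gene lies with the class I histocompatibility genes, rose least of the called members of this list, from 5.90, 6.02 and 6.17 to 6.37, 6.37 and 6.49. Its difference of 0.39 (adjusted p = 0.0313) did not pass after quantile normalization (0.23, adjusted p = 0.151) or cyclic loess (0.29, adjusted p = 0.0778), nor without EV replicate 1 or 2 or any 1 of the PIM1 arrays (adjusted p = 0.0690 to 0.0895).

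The other 6 measured interferon-inducible members were not called. Trim14, an adaptor without a RING finger, averaged 3.77 in EV and 3.84 in PIM1, a difference of 0.06 (95% interval -0.18 to 0.31). Trim34a differed by -0.40 (interval -0.75 to -0.06, adjusted p = 0.0842), opposite in sign to the called members of the list. Trim12c, Trim30b, Trim30c and Trim69 all averaged under 2.7 in both groups and differed by -0.09, 0.03, -0.09 and -0.09. Their signs turned under some alternatives and carry no direction.

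Trim12a, Trim30a and Trim30d belong to a single stretch of neighbouring genes. In RefSeq order on GRCm38.p6 the family members there are Trim6, Trim34a, Trim5, Trim12a, Trim34b, Trim12c, Trim30b, Trim30c, Trim30a, Trim30d and Trim30e-ps1. Of the 9 measured, 3 rose and 6 were not called, so genes with and without a call were neighbours there. Trim30a and Trim30d sit side by side between Trim30c (1.85, 1.55 and 2.03 in EV, 1.71, 1.83 and 1.62 in PIM1) and Trim30e-ps1 (1.37, 1.80 and 1.77 in EV, 1.28, 1.53 and 2.06 in PIM1), whose groups overlapped. Close paralogs can share signal through similar probes, so a rise may not belong to 1 of them alone. A second run near the class I genes holds Trim26, Trim15, Trim10, Trim40 and Trim31, and Trim26 was the member called there. Trim15 differed by 0.20 and Trim10 by -0.15 with groups apart, and Trim40 and Trim31 overlapped, all at signals under 4.

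**Figure D3:**
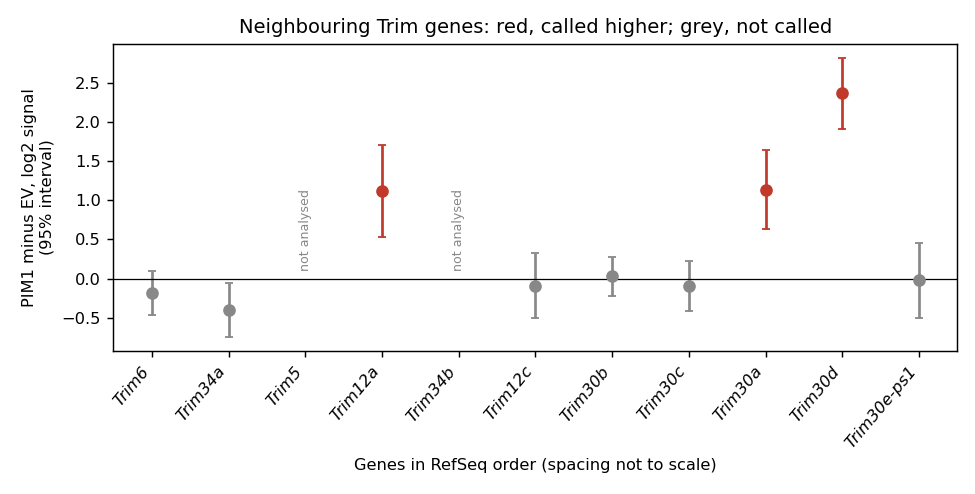
PIM1 minus EV difference of log2 signal (vertical axis, bars are 95% intervals) for 11 neighbouring Trim genes in RefSeq order, with spacing not to scale. Trim12a, Trim30a and Trim30d stand above 0, the other measured genes lie between -0.40 and 0.03, and Trim5 and Trim34b were not analysed here.

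The promoters of these genes were searched because interferon acts on many TRIM genes through the interferon-stimulated response element. The core of this element, GAAA repeated after any 2 bases, was sought on both strands, overlapping matches included, in RefSeq windows of 250 bases before to 50 after each start (GRCm38.p6). Windows were given for 49 Trim genes, and 8 of them (16.3%) held a match, against 1079 of 27025 genes (3.99%) in the whole table. Of 11 called higher genes with a window, 5 held a match, those of Trim12a, Trim21, Trim26, Trim30a and Trim30d. Of 4 called lower genes with a window 0 held one, and of 34 uncalled genes 3 did, those of Trim2, Trim12c and Trim34a. Trim12a, Trim12c, Trim30a, Trim30d and Trim34a are neighbouring family members, some with nearly identical stretches, so these matches are not independent of each other. Trim25 and Trim56 rose without a match in their windows. The stretches below show the matches in capitals, 5′ to 3′ along the gene, because they set called genes beside uncalled paralogs. At most 30 bases after the start are printed. The stretch of the uncalled Trim2 is therefore left out, as its match covers bases 29 to 38 after the start.

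Trim30d (chr7:104507856-104507915, minus strand, called higher): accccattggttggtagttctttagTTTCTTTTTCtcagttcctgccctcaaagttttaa
Trim30a (chr7:104465195-104465254, minus strand, called higher): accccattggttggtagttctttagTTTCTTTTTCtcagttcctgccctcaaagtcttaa
Trim12a (chr7:104315466-104315510, minus strand, called higher): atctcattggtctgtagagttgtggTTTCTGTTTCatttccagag
Trim12c (chr7:104353344-104353403, minus strand, not called): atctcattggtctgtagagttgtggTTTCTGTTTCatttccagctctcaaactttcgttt
Trim34a (chr7:104244442-104244486, plus strand, not called): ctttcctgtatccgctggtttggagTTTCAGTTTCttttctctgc
Trim21 (chr7:102565453-102565494, minus strand, called higher): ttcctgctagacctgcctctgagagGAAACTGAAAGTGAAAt
Trim26 (chr17:36836961-36837026, plus strand, called higher): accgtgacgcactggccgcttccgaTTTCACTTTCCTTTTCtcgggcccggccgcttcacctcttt

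Trim30a had a second window with a match, whose stretch (chr7:104446096-104446148, minus strand) was identical to that of Trim30d at 39 of 53 bases. Stretches were compared position by position without gaps, so an inserted or missing base lowers such a count. The Trim30a stretch printed above was identical to that of Trim30d at 59 of 60 bases, and both genes rose. Those of Trim12a and Trim12c were identical at 43 of the 45 bases compared, match included, and Trim12a was called whereas Trim12c was not (intervals 0.53 to 1.71 and -0.50 to 0.32, the difference between the genes not tested). The Trim12c probe set was dim, at 2.31 in EV and 2.22 in PIM1. A probe set shared by Trim12c and Trim5 averaged 3.14 in EV and 3.49 in PIM1 (limma adjusted p = 0.102 over all probe sets). Another shared by them averaged 2.53 and 2.51 (adjusted p = 0.951). Trim21 and Trim26 each held 2 overlapping matches. A match is a run of letters and not a shown site of binding. Over the array, 4.70% of all called higher genes with a window and 3.88% of all genes with one held the pattern. The gamma-activated sequence TTCNNNGAA was found for 6 of the 49 Trim genes (12.2%) and 9.55% of all genes, and Trim46 was the called member among them.

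Regulators of innate signalling formed an overlapping list, in which 9 of 21 measured members rose and 1 fell, with a median difference of 0.25. The 47.6% called was near the 44.0% of all genes in the brighter part of the array, and the list had a median EV signal of 5.35. The list was not all bright. Trim13, Trim14, Trim30a, Trim31, Trim38 and Trim40 were in the dimmer part, where 10.0% of all genes were called. Besides Trim21, Trim25, Trim26, Trim30a and Trim56, the members that rose were Trim68, Trim32, Trim11 and Trim8. Trim68, a ligase described as a coactivator of the androgen receptor, read 4.14, 4.40 and 3.85 in EV and 4.69, 4.78 and 4.93 in PIM1, a rise of 0.67 (adjusted p = 0.0122). It did not pass without PIM1 replicate 3 (0.61, adjusted p = 0.0506). Trim32, a ligase with NHL repeats that is mutated in a limb-girdle muscular dystrophy, rose by 0.56 from 6.10, 6.41 and 6.12 to 6.83, 6.59 and 6.89 (adjusted p = 0.0144). Its call was lost without PIM1 replicate 1 or 3 (adjusted p = 0.0577 and 0.0541). Trim8, a ligase that modifies the kinase TAK1, was the brightest member to rise. Its signal went from 8.03, 8.11 and 8.06 to 8.64, 8.56 and 8.42, a difference of 0.47 (adjusted p = 0.00991), with the groups apart and the call held under all 14 alternatives.

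Trim11 read 5.69, 5.21 and 5.42 in EV and 5.95, 5.94 and 5.97 in PIM1, a rise of 0.52 (adjusted p = 0.0217). The 3 PIM1 arrays were close together and the EV arrays were spread, and the call was lost after quantile normalization (0.38, adjusted p = 0.0798), without EV replicate 2 or 3 (adjusted p = 0.0511 and 0.0515) or without any 1 PIM1 array (0.0656 to 0.0670). Trim27, the ret finger protein and the list member that fell, read 7.62, 7.36 and 7.67 in EV and 7.09, 7.31 and 6.99 in PIM1. PIM1 replicate 2 nearly reached EV replicate 2, and the difference of -0.42 was close to the threshold (adjusted p = 0.0459). Its other, dimmer probe set differed by -0.16 (adjusted p = 0.659 over the single-symbol probe sets). Trim27 did not pass when both probe sets were averaged (-0.29, adjusted p = 0.258), after median centring (-0.32, adjusted p = 0.109), with the replicate number as a block (adjusted p = 0.0912), or without EV replicate 1 or 3 or PIM1 replicate 1 or 3 (0.108 to 0.135). Of the 11 list members not called, Trim41 had the largest rise in value, 0.32 (interval 0.00 to 0.63, adjusted p = 0.128), and Trim38 was -0.30 (interval -0.59 to 0.00, adjusted p = 0.130).

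Trim47 and Trim46 were the called higher members outside both lists. Trim47, a PRY-SPRY ligase, read 5.76, 5.60 and 5.79 in EV and 6.42, 6.50 and 6.06 in PIM1, a rise of 0.61 (adjusted p = 0.0121). It was lost after quantile normalization (0.46, adjusted p = 0.0527) and without PIM1 replicate 1 or 2 (adjusted p = 0.0516 and 0.0517). Trim46, which bundles microtubules at the start of the axon, rose by 0.39 from 5.99, 6.02 and 5.90 to 6.42, 6.24 and 6.43 (adjusted p = 0.0233). Its call was lost after quantile normalization (0.24, adjusted p = 0.123) and cyclic loess (0.30, adjusted p = 0.0631), with the block (adjusted p = 0.0548), and without EV replicate 3 or PIM1 replicate 1 or 3 (0.0641 to 0.0902).

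Of the TIF1 class, whose members carry a PHD finger and a bromodomain, 2 of 4 fell and 0 rose, with a median difference of -0.46. Over all genes in the brighter part of the array, 44.0% were called and 14.7% fell. The class had a median EV signal of 7.82, with Trim66 dim, so its 50% called was near that background. Trim33, a partner and ligase of SMAD proteins in TGF-beta signalling, read 7.41, 7.43 and 7.54 in EV and 6.74, 6.65 and 6.78 in PIM1. Its arrays were tight within each group, and the difference was -0.73 (standard error 0.0966, adjusted p = 0.000875). Trim24, a coregulator of nuclear receptors including the androgen receptor, read 8.14, 8.14 and 8.27 in EV and 7.58, 7.53 and 7.70 in PIM1, a difference of -0.58 (standard error 0.0997, adjusted p = 0.00348). Both calls held under all 14 alternatives. Trim28, the corepressor recruited by KRAB zinc finger proteins, was the brightest Trim gene over the 6 arrays, with 9.40 ± 0.046 in EV and 9.24 ± 0.11 in PIM1 (SD, n = 3). Its arrays did not overlap, but the difference of -0.16 was not called (interval -0.39 to 0.08, adjusted p = 0.294). Trim66, mostly a testis gene, read 3.14, 3.12 and 2.83 against 2.72, 2.79 and 2.56, a dim difference of -0.34 (adjusted p = 0.0794) that passed without EV replicate 3 (-0.44, adjusted p = 0.0348).

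The largest fall of the family was that of Trim16, a member without a RING finger that takes part in autophagy of damaged endomembranes. It read 7.32, 7.25 and 7.17 in EV and 6.38, 6.22 and 6.36 in PIM1. The groups lay apart by several times their spread, and the difference was -0.92 (standard error 0.0999, adjusted p = 0.000313). Trim37, a MATH-domain ligase of peroxisomes and centrosomes, fell by 0.73 from 7.94, 8.10 and 8.17 to 7.30, 7.25 and 7.48 (adjusted p = 0.00207). The Trim16 and Trim37 calls held under all 14 alternatives. Trim59, anchored in membranes by a carboxy-terminal segment, was the second brightest Trim gene and read 9.25, 9.39 and 9.55 in EV and 8.90, 8.83 and 9.02 in PIM1. Its difference of -0.48 (adjusted p = 0.0162) did not pass without PIM1 replicate 1 or 2 (adjusted p = 0.0593 and 0.0691).

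Trim29, a RING-less protein found in basal and squamous epithelium, fell at a dim signal from 4.03, 3.88 and 3.64 to 3.39, 3.37 and 3.36. The PIM1 arrays were nearly equal, and the difference of -0.48 (adjusted p = 0.0204) was lost without EV replicate 1 or 2 or any 1 PIM1 array (adjusted p = 0.0510 to 0.0666). Beside it, 3 of 9 measured basal epithelial markers fell and 0 rose, where 10.9% of all genes fell. Their summed log2 signal was 37.7 to 38.8 on the EV arrays and 32.7 to 33.1 on the PIM1 arrays. The falls were those of Itga6 (-2.10), Cdh3 (-1.29) and Lamb3 (-1.03). Krt14, Krt15, Trp63, Itgb4, Col17a1 and Dsg3 were dim in both groups and not called. The part of these markers in the Trim29 result was not tested.

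**Figure D4:**
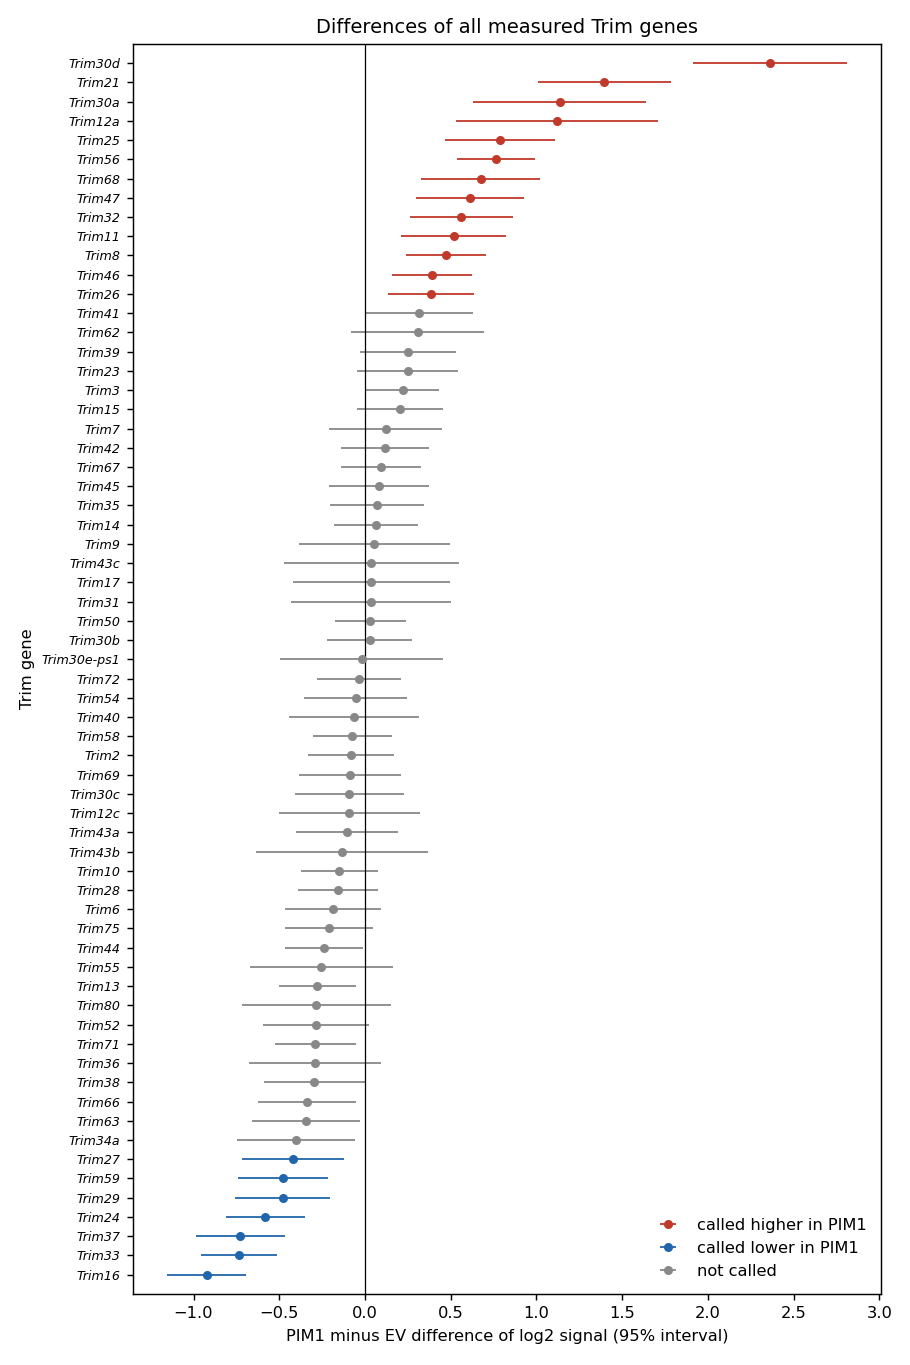
PIM1 minus EV difference of log2 signal (horizontal axis) with its 95% interval for each of the 64 Trim genes, ordered by size. The 13 called higher run from Trim26 (0.39) to Trim30d (2.36), the 7 called lower from Trim27 (-0.42) to Trim16 (-0.92), and the 44 uncalled lie between -0.40 and 0.32.

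By domain class, PRY-SPRY members held 9 rises and 2 falls among 34 measured (32.4% called), and members with no further domain 2 rises among 5, against 27.0% called over all genes. None of the 3 muscle RING finger genes Trim54, Trim55 and Trim63 was called by limma, 1 of them with an unadjusted p under 0.05, and their differences were -0.05, -0.25 and -0.34. The NHL-repeat genes had 1 rise among 4, that of Trim32. Trim3 was 0.22 higher with arrays apart but was not called (interval 0.01 to 0.43, adjusted p = 0.120), and Trim71, known for stem cells and early development, was -0.29 with arrays apart (adjusted p = 0.0727). Of the COS-box genes with a PRY-SPRY domain, Trim46 rose, and Trim9, Trim36 and Trim67 averaged under 3 in both groups. The bright B-box gene Trim44 was -0.24 with arrays apart (interval -0.47 to -0.01, adjusted p = 0.113). The ARF-domain gene Trim23 differed by 0.25 (interval -0.04 to 0.55). For 26 of the 44 uncalled genes the whole 95% interval lay within 0.5 of 0, and the median interval reached 0.29 to either side. Of the 5 Trim genes with a second probe set, Trim7 and Trim42 had second probe sets of the opposite sign, -0.14 against 0.12 and -0.28 against 0.12, with no call for either.

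TRIM proteins that carry other symbols moved both ways. Of 5, 1 rose and 1 fell. Pml, the organiser of nuclear bodies and an interferon-induced gene, rose by 0.68 from 7.37, 7.31 and 7.44 to 7.94, 8.02 and 8.19 (adjusted p = 0.00221). Mid2, a microtubule-bound ligase, fell by 1.57 from 5.54, 5.89 and 5.79 to 4.19, 3.98 and 4.35 (adjusted p = 9.53e-05), more than any Trim gene under the rule. Its paralog Mid1 was bright and differed by -0.07 (adjusted p = 0.725).

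Of the interferon receptors and transducers upstream of the inducible members, 9 of 13 rose and 0 fell, with a median difference of 0.68, at a median EV signal of 6.77 where 44.0% of all brighter genes were called in either direction. Ifnar2, a chain of the type I interferon receptor, rose by 1.68, Stat2 by 1.80, the kinase gene Jak2 by 1.55 and Irf9, which binds DNA for the STAT complex, by 1.65 (adjusted p between 1.26e-05 and 4.04e-05). Of the innate adaptors and kinases that TRIM ligases modify or assist, 9 of 22 rose and 1 fell, with a median of 0.28. These 45.5% called, at a median EV signal of 6.46, were near the 44.0% of all brighter genes. Ddx58, which encodes the Trim25 partner RIG-I, rose by 0.78 (adjusted p = 0.000984), the RNA sensor gene Ifih1 by 1.45, the transcription factor gene Irf7 by 0.82 and the adaptor gene Mavs by 0.58. Tab3 was the member that fell (-0.50, adjusted p = 0.0114). Tab2 differed by 0.03 (adjusted p = 0.818) and Tab1 rose by 0.46 (adjusted p = 0.0233). Trim30a acts on the TAB2 and TAB3 proteins, and a relation of these RNA values to Trim30a was not tested. The fibroblast marker values given above apply beside both lists, and their part was not tested.

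Ubiquitin E1 and E2 enzymes and the ISG15 pathway held 9 rises and 2 falls among 17 measured genes (64.7% called, against 44.0% of all brighter genes), with a median difference of 0.56. The rises with the smallest p were those of the ISG15 system, in which the ubiquitin-like protein ISG15 is joined to targets by its own enzymes. The E2 gene Ube2l6 rose by 1.95, Isg15 by 1.87, the ISG15 protease gene Usp18 by 2.66 and the ligase gene Herc6 by 1.02. Uba7, the E1 gene of that system, was also called higher (adjusted p = 0.00711). These ISG15 genes all rose, so the 64.7% does not show a rise of the ubiquitin enzymes as a class. Among E2 genes that serve RING ligases, Ube2d3 rose by 0.81 and Ube2n by 0.67 (adjusted p = 0.000488 and 0.00383). Ube2v2, a partner of the Ube2n enzyme, fell by 0.92 and Ube2l3 by 0.44. Ube2e2 and Ube2w were also called higher, whereas Ube2d1, Ube2d2a, Ube2e3, Ube2k and Ube2v1 were not called. The E1 gene Uba6 differed by 0.0027 (adjusted p = 0.992). Of 12 measured TIF1 partners, 4 rose and 2 fell, with a median of 0.06, so 6 of 12 were called, near the 44.0% of all brighter genes. Chd3, a remodeller recruited by Trim28, fell by 1.60 from 7.87, 7.78 and 7.96 to 6.17, 6.30 and 6.32 (adjusted p = 1.60e-05). The heterochromatin gene Cbx1 fell by 0.45, and the retinoic acid receptor gene Rara and the histone methyltransferase gene Setdb1 rose by 0.40 and 0.37.

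**Figure D5:**
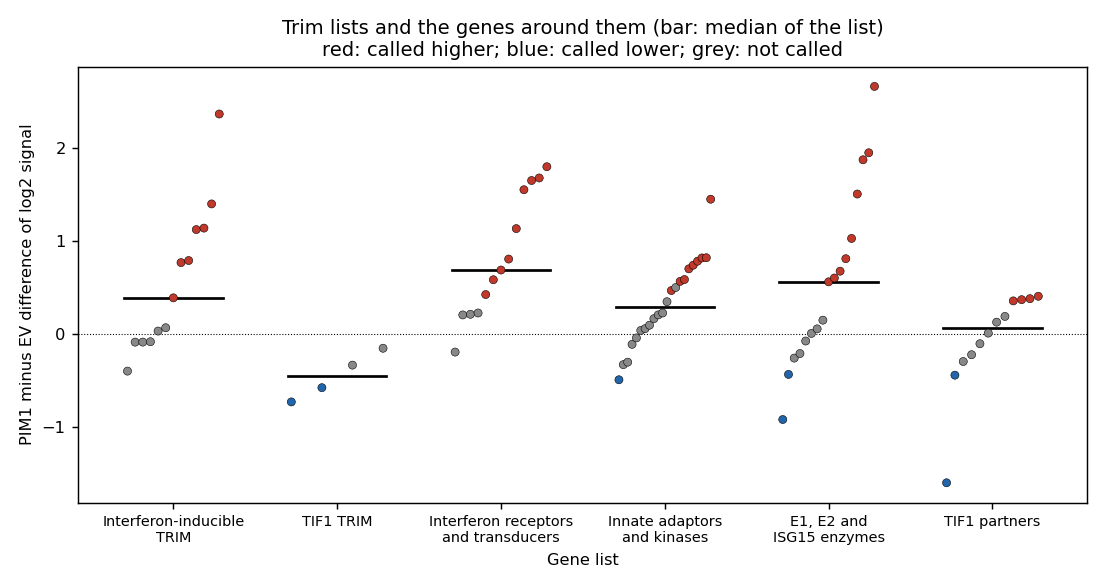
PIM1 minus EV difference of log2 signal (vertical axis) of each measured gene in 6 lists, with the list median as a bar. The medians are 0.39 for interferon-inducible TRIM genes, -0.46 for TIF1 genes, 0.68 for interferon receptors and transducers, 0.28 for innate adaptors and kinases, 0.56 for E1, E2 and ISG15 enzymes, and 0.06 for TIF1 partners, against -0.05 for all genes.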

How the data were processed

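RNA was measured on 6 mouse whole-transcript arrays, 3 of EV and 3 of PIM1 cells, grouped by sample title. The deposited values were taken as log2 signals because they range from 0.34 to 13.0. For their log base, background correction, probe summary and normalization the sources used here give nothing. The submitters' processing notes name Affymetrix Expression Console. The authors' normalization was kept. Gene symbols came from the platform annotation and matched the RefSeq annotation of GRCm38.p6 by Entrez identifier for 64 of 64 Trim genes. Of 41345 probe sets, 23521 had 1 symbol, 1814 several and 16010 none, and the brightest probe set of each gene was used (22180 genes).

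For the comparison limma 3.58.1 was run under R 4.3.3 with group alone in the model (lmFit, eBayes, two-sided tests) and Benjamini-Hochberg adjustment over all 22180 genes. A gene is called at adjusted p under 0.05. Tested on simulated data for this comparison with 22180 genes, the fit recovered 13.4% of 67 genes given a log2 change of 0.5, 73.1% of 67 changed by 1 and 95.5% of 66 changed by 2, with 2 false calls. Far fewer genes were changed there than the 5995 called in the data, which makes the adjustment stricter. These shares therefore do not give the sensitivity in the data. Alternatives were trended and robust variance, quantile normalization, median centring, cyclic loess, the brighter 11090 genes alone, probe sets averaged or all tested, the replicate number as a block, and leaving out each array. The number of arrays limits the precision, and no detection call was used. The members and gene lists were chosen with earlier results of these data known. Every called Trim gene, every measured member of the interferon-inducible list and of the TIF1 class, and up to 4 genes of each surrounding list with the smallest p were to be named, with further genes chosen after their values were seen. Promoter windows are those of RefSeq on GRCm38.p6.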

Additional observations from a re-analysis of the deposited data

How the results depend on the processing

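Of the 20 Trim calls, 10 held under each of the 14 alternatives that tested them, those of Trim8, Trim16, Trim21, Trim24, Trim25, Trim30a, Trim30d, Trim33, Trim37 and Trim56. Trim30a and Trim30d were not among the brighter 11090 genes and had 13 tests each. Leaving out 1 array gave 12 to 19 Trim calls, 7 to 12 higher and 4 to 8 lower, and 2 to 4 calls of at least 2-fold, against 20, 13, 7 and 4. The lowest total of 12 came without PIM1 replicate 1 and again without PIM1 replicate 3. Fewer arrays were fitted there, and calls over all genes went from 5995 to 4248 and 4727. Among the brighter 11090 genes, which hold 28 Trim genes, 1 call was 2-fold and the median Trim difference was 0.24. With the replicate number as a block, 18 Trim genes and 5321 genes in all were called, and Trim27 and Trim46 were lost. Same-numbered arrays did not deviate together, with correlations of 0.056, -0.031 and 0.00875, so the numbers were not taken to pair the samples.

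Signs turned only in uncalled genes near 0 among the Trim genes named under the rule. Trim12c was 0.038, 0.0070 and 0.047 after quantile normalization, median centring and cyclic loess, and 0.054 and 0.0048 without EV replicate 2 and PIM1 replicate 3. Trim30c was 0.042, 0.0075 and 0.055 under those 3 normalizations and 0.017 without EV replicate 3. Trim69 was 0.046, 0.011 and 0.045 under them and 0.0012 without PIM1 replicate 2. Trim30b was -0.0096 without EV replicate 1 and -0.021 without PIM1 replicate 2. Over the fits without 1 array the differences ran from -0.24 to 0.054 for Trim12c, -0.021 to 0.094 for Trim30b, -0.22 to 0.017 for Trim30c and -0.18 to 0.0012 for Trim69. The cause was not tested. The cause of the lost calls was not tested either, and 3 arrays a group limit what can be called.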

Other observations

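Some 7 further probe sets carried a Trim symbol together with that of another gene. Their signal belongs to no single gene, and they entered no count of called genes above. Their signals lay between 2.28 and 5.86 on the log2 scale, and their PIM1 minus EV differences between -0.63 and 0.54. With limma, 0 of the 7 passed over all probe sets, where the lowest adjusted p was 0.0785, and 2 had an unadjusted p under 0.05.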
